A study of Bos taurus with 8 samples.

Results

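The genes described here encode the vacuolar proton pump and a set of lysosomal proteins, 33 genes in all: 13 subunits of the pump's V1 sector, 9 subunits of its V0 sector, 2 accessory proteins, 4 proteins of the lysosomal membrane or its control, and 5 lysosomal hydrolases. The genes were chosen by name, with earlier results of these data known. Each was read from its brightest probe, so measured differences played no part in which probe stands for a gene. All 33 of 33 had a probe bright enough to test, out of 13197 genes tested and 16911 named genes on the array. Together they were covered by 75 of 51282 probes.

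The vacuolar ATPase is a rotary motor that spends ATP to move protons across a membrane. Its cytosolic V1 sector binds and splits ATP, and its membrane-bound V0 sector carries the protons, so that lysosomes, endosomes and secretory vesicles become acid. In some epithelial cells and in osteoclasts the same pump sits in the plasma membrane and acidifies the outside, and several subunits exist as alternative isoforms with different tissue ranges. Lysosomal hydrolases need the acid interior that the pump makes, and the placental trophoblast uses endocytosis and lysosomes to take up and digest maternal protein.

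Gene expression was measured on 8 one-colour arrays designed for cattle, 4 carrying RNA labelled pregnant and 4 carrying RNA labelled non-pregnant. Every sample was labelled as cotyledon of the fetus, the fetal portion of a ruminant placentome, and as female. Those labelled pregnant were described as after pregnancy and those labelled non-pregnant as before pregnancy, while the protocol shared by all 8 speaks of gravid uteri of buffalo collected at a slaughterhouse, so cattle probes met RNA that the protocol calls buffalo. No strain, age or stage of gestation is used here, since the labels state none, and nothing in them says whether the replicates came from separate animals. The p-values below therefore measure only the spread between these samples, which may be technical.

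The 75th percentile of spot intensity lay between 798 and 1347 on the arrays labelled pregnant and between 1168 and 1797 on those labelled non-pregnant. Probes flagged as well above background made up 60.58% to 65.96% on arrays labelled pregnant and 63.67% to 69.5% on arrays labelled non-pregnant. All 8 arrays were on 1 slide, but the groups lay in different slide rows, so row and group cannot be told apart. Array 4 labelled pregnant stood apart, correlating at 0.943 to 0.951 with the other arrays of its label, which correlated at 0.977 to 0.989 with each other. Between labels the correlation was 0.736 to 0.783. The trophoblast markers go against the labels. All 7 tested were lower on arrays labelled pregnant, where the signal summed over 8 listed markers was 0.336 to 2.03 times the array's 75th percentile, against 512 to 791 times on arrays labelled non-pregnant, and TKDP1, CDX2 and PLAC1 were not well above background on any array labelled pregnant. Uterine markers ran the other way, with 5 of 5 higher and sums of 89.4 to 191 times the percentile on arrays labelled pregnant, against 0.0973 to 0.849 times on arrays labelled non-pregnant. ESR1 and HOXD10 were not well above background on any array labelled non-pregnant, and PGR and SERPINA14 were on 1 each. All but GRP could thus be tested only through the arrays labelled pregnant, where they were high. The 4 globin genes were all lower, at sums of 0.508 to 2.69 times the percentile on arrays labelled pregnant against 335 to 600 times on arrays labelled non-pregnant. HBB and HBM, like CDX2 and PLAC1, could be tested only through the arrays labelled non-pregnant. The counts called in these lists thus owe part to the filter on dim probes, while the sums take every listed marker, tested or not. Groups are therefore called by their labels throughout. In bulk tissue, fewer cells of a type and less RNA per cell cannot be told apart.

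Probes on this array are 60 bases long, and those that carry the results below are printed here 5′ to 3′ as the files give them. The coordinates are those of the array design on the cattle build Btau_3.1. Which part of its gene each probe covers (exon, intron or UTR) was not looked up, for want of an annotation on that build. ATP6V1G3, a G isoform of the V1 stalk found in human kidney, had the largest difference of the 33 genes and was read by a pair of probes. Capitals in the first mark a TAA stop codon at its 3′ end, reached in the first frame with no earlier stop. That probe lies at chr16:75763067-75763126 on the minus strand, and the second has no position in the design.
ATP6V1G3, brightest probe: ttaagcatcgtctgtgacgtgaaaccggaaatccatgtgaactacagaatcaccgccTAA
ATP6V1G3, second probe: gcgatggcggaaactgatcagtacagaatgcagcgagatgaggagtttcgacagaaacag
ATP6V1E2 (chr11:30072504-30072563, minus strand) had the largest positive difference of the 33 genes as processed here, though not under a normexp background, where ATP6V0E2 and ATP6V1G2 had larger ones. ATP6V0D2 (chr14:75435957-75436016, minus strand) is shown as a V0 isoform that was near background on most arrays labelled pregnant. Neither holds a part set in capitals.
ATP6V1E2: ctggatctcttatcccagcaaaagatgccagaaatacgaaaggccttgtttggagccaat
ATP6V0D2: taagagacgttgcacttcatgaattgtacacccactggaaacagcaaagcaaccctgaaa
For ATP6V1F the array carries probes to both strands of 1 place, at chr4:96066948-96067007 on the plus strand and chr4:96066947-96067006 on the minus strand. Capitals mark the 59 bases that are reverse complements of each other.
ATP6V1F, plus strand: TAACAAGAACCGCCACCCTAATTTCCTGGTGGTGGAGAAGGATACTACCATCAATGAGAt
ATP6V1F, minus strand: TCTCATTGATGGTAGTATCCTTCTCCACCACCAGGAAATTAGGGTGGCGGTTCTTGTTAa

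The comparison asks which pump and lysosomal genes differ between RNA labelled pregnant and RNA labelled non-pregnant. Most did, and mostly downward: 23 of the 33 genes (69.7%) were lower on arrays labelled pregnant, 4 were higher and 6 did not pass the test, at a Benjamini-Hochberg adjusted p below 0.05 in limma over all tested probes. Over all genes tested, 32.9% were lower and 29.9% higher, together 62.8%, so a call in itself sets no gene apart on these arrays. The groups did not overlap for 25 of the 33 genes, beside 60.3% of all genes. The median difference of the 33 genes was −1.43 on the log2 scale, beside −0.03 over all genes. ATP6V1G3 and GLA, counted among the 23, could be tested only because they were brighter on arrays labelled non-pregnant. ATP6V0D2, ATP6V0A4 and ATP6V1E2 were dim on some arrays of the group where they were lower. They too needed the brighter group to reach the 4 arrays that a test required. Where genes dim on any array were dropped, 20 of 28 were lower and 3 higher, beside 33.3% and 28.8% of all genes. By size, 20 of the 23 lower genes and 3 of the 4 higher ones differed by 2-fold or more. Among the 24 pump genes and accessory proteins 19 were lower (79.2%), 3 were higher and 2 did not pass, with a median of −1.54. Among the 9 lysosomal genes 4 were lower (LAMP2, GLA, NEU1 and MAN2B1) and MCOLN1 was higher, and the contrast between these lists was not tested. Values below are log2 signals relative to the 75th percentile of their own array, given for replicates 1 to 4 in order, and each difference is labelled pregnant minus labelled non-pregnant with its standard error from limma.

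**Figure D1:**
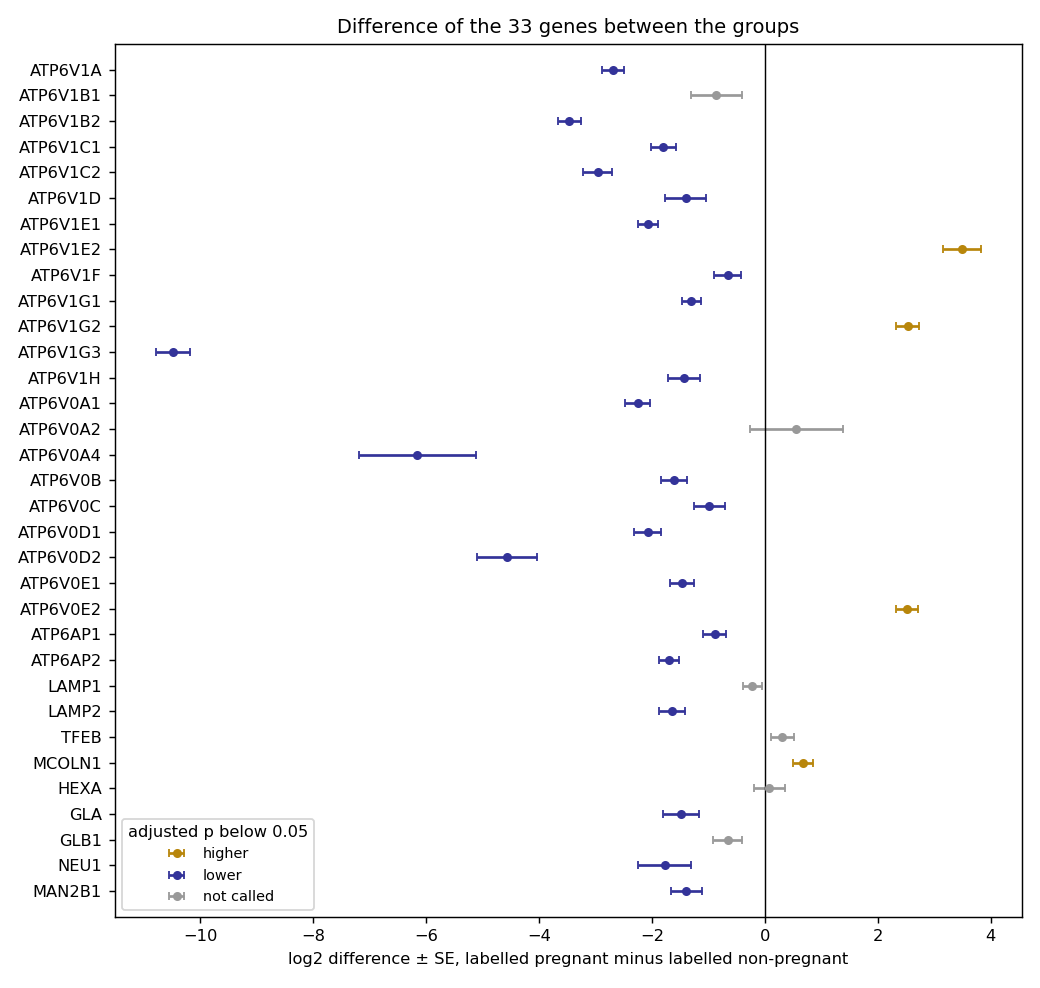
Log2 difference (labelled pregnant minus labelled non-pregnant, x axis) of each of the 33 genes (y axis), with bars of 1 standard error from limma, n = 4 arrays per group. Of the 33 genes, 23 lie left of 0 as lower, 4 right of it as higher, and 6 in grey did not pass an adjusted p of 0.05. ATP6V1G3 and GLA are drawn at measured differences from signals not above background in 1 group.

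Of the 3 genes of the catalytic head of V1, ATP6V1A and ATP6V1B2 were lower and ATP6V1B1 did not pass. ATP6V1A, the A subunit that binds and splits ATP, had signals of 2.12, 2.44, 2.21 and 2.18 on arrays labelled pregnant, against 5.03, 5.06, 5.05 and 4.58 on arrays labelled non-pregnant. All 4 arrays labelled pregnant lay far below all 4 others, a difference of −2.69 ± 0.19 or 6.45-fold (adjusted p = 4.60e-06). Both of its other probes were also lower, by −3.45 and −2.57.
ATP6V1B2, the widely expressed B subunit, which alternates with A in the ring, had −0.43, −0.12, −0.32 and 0.31 on arrays labelled pregnant, against 3.36, 3.24, 3.31 and 3.39 on arrays labelled non-pregnant. The arrays labelled non-pregnant spread little (SD 0.07), and the difference was −3.46 ± 0.20 (adjusted p = 1.97e-06). Its 3 other tested probes differed by −1.58 to −3.70.
ATP6V1B1, the B isoform of kidney and inner ear, did not pass: 0.43, −0.44, 0.34 and −1.53 on arrays labelled pregnant against 1.08, 0.57, −0.06 and 0.66 on arrays labelled non-pregnant, with overlapping groups and a difference of −0.86 ± 0.45 (adjusted p = 0.125). It passed as lower with median scaling (−1.25), without scaling (−1.35) and as the mean of its probes (−0.58, adjusted p = 0.0494), and none of its 4 probes passed in the fit reported here.

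Around the ring, both C genes were lower, while the E and G subunits of the stalks each held genes of both directions. ATP6V1C1, the widely expressed C subunit that clamps the stator, had 1.2, 0.91, 0.83 and 0.87 on arrays labelled pregnant, against 2.27, 2.94, 3.05 and 2.74 on arrays labelled non-pregnant, a difference of −1.80 ± 0.22 (adjusted p = 1.18e-04). ATP6V1C2, the C isoform of lung, kidney and placenta, had −1.15, −0.16, −0.02 and −0.57 against 2.51, 2.38, 2.38 and 2.68, a difference of −2.96 ± 0.26 (adjusted p = 1.93e-05). Each C gene had a second probe that was also lower, though that of ATP6V1C2 starts 2 bases from the first.
ATP6V1E1, the widely expressed E subunit of the peripheral stalk, had 3.46, 3.60, 3.65 and 3.77 on arrays labelled pregnant, against 5.82, 5.63, 5.83 and 5.50 on arrays labelled non-pregnant, and fell by 2.07 ± 0.17 (adjusted p = 1.25e-05). ATP6V1E2, the E isoform known from testis, rose: −3.80, −3.08, −3.22 and −2.11 against −6.52, −6.50, −6.88 and −6.26, a difference of 3.49 ± 0.34 (adjusted p = 3.46e-05). It was dim, well above background on 2 of the 4 arrays labelled non-pregnant, and its difference was 1.65 under a normexp background. It passed the filter on dim probes only with the arrays labelled pregnant, where it was high, so its p is limited support.

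Of the 3 G subunits, which pair with E in the stalks, ATP6V1G1 and ATP6V1G3 were lower and ATP6V1G2 was higher. ATP6V1G1, the widely expressed one, had 5.45, 5.61, 5.64 and 5.22 on arrays labelled pregnant, against 6.75, 6.77, 6.91 and 6.67 on arrays labelled non-pregnant, and fell by 1.30 ± 0.17 (adjusted p = 2.19e-04). ATP6V1G2, the isoform of brain, had 0.14, −0.19, −0.21 and −0.19 against −2.53, −2.60, −2.41 and −3.04, and rose by 2.53 ± 0.20 (adjusted p = 9.44e-06). Its second probe, which starts 25 bases away and overlaps the first, read 2.54. ATP6V1G3, whose probe sequences are printed above, was not well above background on any array labelled pregnant (−6.65, −7.27, −6.45 and −7.60) and bright on every array labelled non-pregnant (3.96, 3.32, 3.36 and 3.31). Set against the lowest signal that counts as well above background, it was 954-fold lower on arrays labelled pregnant, with measured means of −6.99 ± 0.54 and 3.49 ± 0.32 (SD, n = 4 each, adjusted p = 8.66e-08). Under a normexp background its log2 difference was −7.21. It passed the filter on dim probes only through the arrays labelled non-pregnant, where it was high, so its p is no further support. The second probe gave −7.40, −4.61, −6.64 and −7.59 on arrays labelled pregnant, against 1.55, 0.82, 0.65 and 0.58 on arrays labelled non-pregnant.

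Among the single-copy V1 subunits, ATP6V1D of the central rotor and ATP6V1H, the regulatory H subunit, were both lower. ATP6V1D had 3.57, 3.57, 3.58 and 5.14 on arrays labelled pregnant, against 5.56, 5.26, 5.48 and 5.14 on arrays labelled non-pregnant. Array 4 labelled pregnant thus equalled the lowest of the other group to 2 decimals, and the difference of −1.40 ± 0.36 (adjusted p = 0.00936) was −1.79 without that array and lost its call under quantile normalization (−0.84, adjusted p = 0.0832). ATP6V1H had 0.57, 0.55, 0.63 and 1.65 against 2.19, 2.11, 2.14 and 2.70, a difference of −1.43 ± 0.29 (adjusted p = 0.00242).
ATP6V1F, the other rotor subunit, had the highest adjusted p of the 23 lower genes: 1.33, 1.54, 1.54 and 2.19 on arrays labelled pregnant against 2.57, 2.48, 2.02 and 2.16 on arrays labelled non-pregnant, with overlapping groups. Its difference of −0.66 ± 0.24 (adjusted p = 0.0404) missed the threshold in 8 of 20 alternative analyses. The probe to the opposite strand, printed above, had −5.81, −4.85, −4.80 and −5.13 on arrays labelled pregnant, against −0.21, −2.53, −2.64 and −5.27 on arrays labelled non-pregnant. It was lower by −2.49 ± 0.89 (adjusted p = 0.0370), with non-pregnant arrays spread far wider than the pregnant ones.

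**Figure D2:**
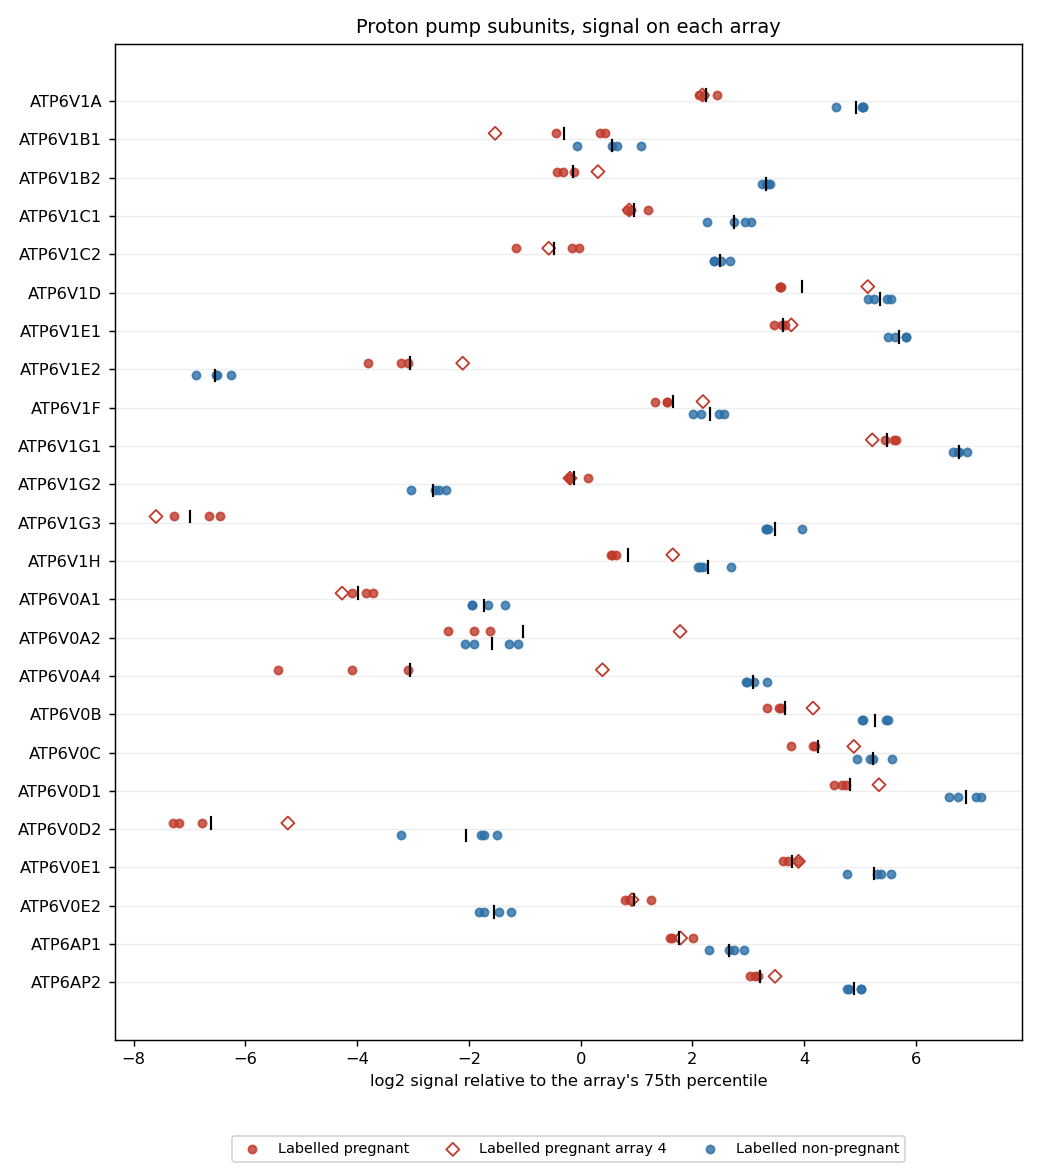
Log2 signal, scaled to the 75th percentile of its array (x axis), for the 24 pump and accessory genes (y axis), 1 point per array, labelled pregnant in red above labelled non-pregnant in blue, with a black bar at each group mean. Array 4 labelled pregnant is the open diamond, and it lies far right of the other 3 for ATP6V0A2, ATP6V0A4 and ATP6V1D.

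In the V0 sector 7 of 9 subunits were lower, 1 was higher and 1 did not pass, with a median of −1.61. The ring that carries protons is made of the c subunit ATP6V0C and its relative ATP6V0B. ATP6V0C had 3.77, 4.16, 4.19 and 4.89 on arrays labelled pregnant, against 4.94, 5.18, 5.58 and 5.24 on arrays labelled non-pregnant, a difference of −0.98 ± 0.27 (adjusted p = 0.0113), with −0.40 and an adjusted p of 0.263 under quantile normalization. ATP6V0B had 3.58, 3.34, 3.56 and 4.16 against 5.47, 5.05, 5.50 and 5.04, a difference of −1.61 ± 0.23 (adjusted p = 3.49e-04). Both ring genes were lower without overlap, though 2 of the 4 probes of ATP6V0C did not pass.
ATP6V0D1, the widely expressed d subunit that couples ring and rotor, had 4.54, 4.68, 4.75 and 5.34 on arrays labelled pregnant, against 7.08, 6.75, 7.17 and 6.60 on arrays labelled non-pregnant, a difference of −2.07 ± 0.24 (adjusted p = 8.26e-05). ATP6V0D2, the d isoform of osteoclasts and kidney in mouse, was dim on 3 of the 4 arrays labelled pregnant. It had −6.77, −7.29, −7.18 and −5.24 there, against −1.72, −1.78, −3.22 and −1.49 on arrays labelled non-pregnant. The groups were far apart, with a difference of −4.56 ± 0.53 (adjusted p = 9.30e-05), which was −1.94 under a normexp background. ATP6V0D2 passed the filter on dim probes only with the arrays labelled non-pregnant, where it was high, so its p is limited support.

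The a subunits form the path by which protons leave the ring, and each isoform is sent to its own membranes. ATP6V0A1, best known from neurons, had −3.84, −4.10, −3.72 and −4.27 on arrays labelled pregnant, against −1.95, −1.95, −1.35 and −1.66 on arrays labelled non-pregnant, a difference of −2.25 ± 0.22 (adjusted p = 2.98e-05). ATP6V0A2, the isoform of Golgi and early endosomes, had −2.37, −1.90, −1.63 and 1.78 against −2.06, −1.29, −1.90 and −1.12. A single array, number 4 labelled pregnant, set its mean: the difference was 0.56 ± 0.82 with it (adjusted p = 0.576) and −0.38 without it (adjusted p = 0.307).
ATP6V0A4, the isoform of acid-secreting kidney cells, had −3.09, −5.42, −4.09 and 0.39 on arrays labelled pregnant, against 3.33, 2.96, 2.97 and 3.11 on arrays labelled non-pregnant. It was well above background on 3 arrays labelled pregnant and all 4 others. ATP6V0A4 thus passed the filter on dim probes only with the arrays labelled non-pregnant, where it was high, so its p is limited support. The groups did not overlap, and the difference was −6.15 ± 1.04 (adjusted p = 8.87e-04) with array 4 and −7.29 ± 0.48 without it. A second probe of this gene also had its highest pregnant value on array 4, at −2.65, and differed by −6.11. A further probe was too dim to test. It had −7.52, −7.28, −7.80 and −6.37 on arrays labelled pregnant, against −7.36, −5.05, −5.10 and −2.97 on arrays labelled non-pregnant, with overlapping groups.
ATP6V0E1, the widely expressed e subunit, had 3.62, 3.89, 3.71 and 3.90 on arrays labelled pregnant, against 5.56, 5.37, 5.31 and 4.77 on arrays labelled non-pregnant, a difference of −1.47 ± 0.21 (adjusted p = 3.49e-04). ATP6V0E2, the e isoform of brain, had 1.26, 0.80, 0.88 and 0.92 against −1.46, −1.81, −1.24 and −1.72 and rose by 2.52 ± 0.20 (adjusted p = 1.04e-05). It was the sole V0 gene called higher.

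Both accessory proteins were lower. ATP6AP2, the prorenin receptor, which helps assemble V0, had 3.04, 3.18, 3.13 and 3.48 on arrays labelled pregnant, against 4.81, 5.01, 5.02 and 4.76 on arrays labelled non-pregnant, a difference of −1.70 ± 0.18 (adjusted p = 4.93e-05). ATP6AP1, the accessory subunit held within V0, had 2.02, 1.60, 1.63 and 1.79 against 2.92, 2.65, 2.30 and 2.74, a difference of −0.89 ± 0.20 (adjusted p = 0.00425). Its much dimmer second probe read 0.08 ± 0.69, and the mean of both probes did not pass (−0.41, adjusted p = 0.368).

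Isoforms of 1 subunit were then set against each other within each array, which takes the scaling of the array out of the comparison. The measure was the log2 ratio of the pair's signals. It carries each probe's own brightness, so only its difference between labels is read. In 8 of 9 pairs the ratios of the groups did not overlap, each with an exact two-sided permutation p of 0.0286, the smallest that 4 against 4 arrays allow, and 0.0321 after adjustment over the 9 pairs. For single genes 60.3% of all tested did not overlap between labels, and the share among other pairs of genes was not computed, so the count sets these pairs apart from no others.
Ratios were higher on arrays labelled pregnant by 5.56 for ATP6V1E2 over ATP6V1E1, 3.99 for ATP6V0E2 over ATP6V0E1, 3.83 for ATP6V1G2 over ATP6V1G1, 2.82 for ATP6V0A2 over ATP6V0A1 and 2.60 for ATP6V1B1 over ATP6V1B2. Without array 4 labelled pregnant the ratio of ATP6V0A2 over ATP6V0A1 differed by 1.78. For ATP6V1B1 over ATP6V1B2 both genes had negative differences and the widely expressed ATP6V1B2 fell further, while for the E, G and e pairs the genes moved in opposite directions.
Ratios were lower by −9.18 for ATP6V1G3 over ATP6V1G1, −2.49 for ATP6V0D2 over ATP6V0D1 and −1.16 for ATP6V1C2 over ATP6V1C1, and in each of these pairs both genes were lower and the first more so. ATP6V1G3, ATP6V0D2 and ATP6V1E2 were near background in one group, so the size of those ratios is limited by it. For ATP6V0A4 over ATP6V0A1 the groups overlapped through array 4 labelled pregnant, which had a ratio of 4.66 against 4.32 to 5.28 on arrays labelled non-pregnant (difference −3.89, exact permutation p = 0.0571, adjusted p = 0.0571), and all 9 pairs were without overlap when that array was left out.

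**Figure D3:**
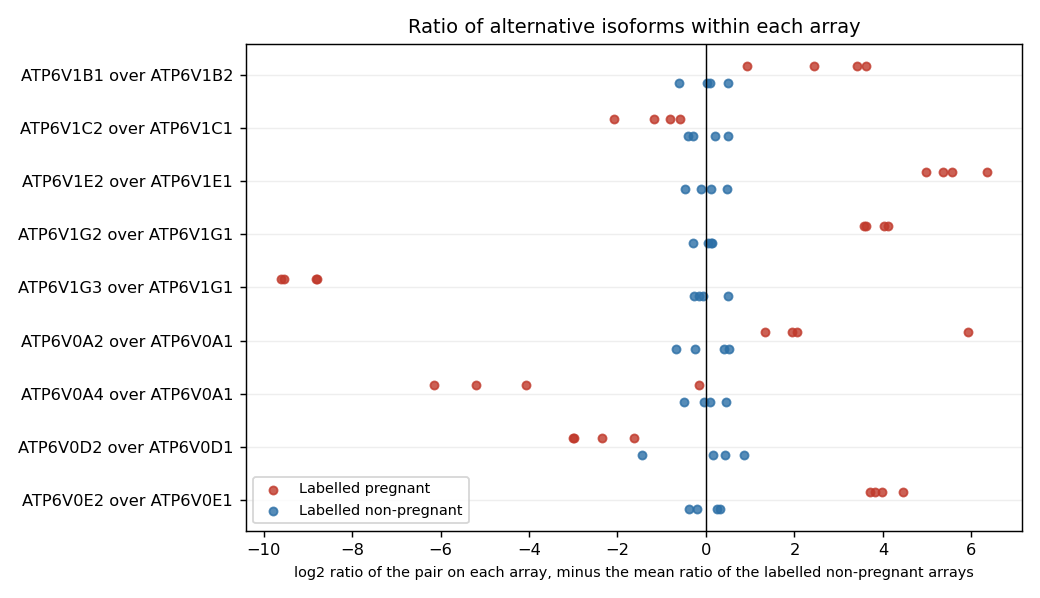
Log2 ratio of 9 isoform pairs (y axis) on each array after subtracting the mean ratio of the arrays labelled non-pregnant (x axis), labelled pregnant in red above labelled non-pregnant in blue. Points of the groups are apart in 8 pairs, and 1 red point of ATP6V0A4 over ATP6V0A1 lies among the blue ones.

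The 9 lysosomal genes went both ways. LAMP2, a heavily glycosylated membrane protein needed for autophagosome fusion and chaperone-mediated autophagy, had 4.14, 3.45, 3.45 and 3.71 on arrays labelled pregnant, against 5.10, 5.18, 5.69 and 5.36 on arrays labelled non-pregnant. All pregnant values lay below all others, a difference of −1.65 ± 0.23 (adjusted p = 2.74e-04), and its other probes read −1.53 and −1.37. LAMP1, its close relative and the usual lysosome marker, had 5.88, 5.76, 5.74 and 5.54 against 6.04, 5.84, 6.09 and 5.85 and did not pass (−0.22 ± 0.17, adjusted p = 0.276), with a sign that turned under quantile normalization (0.27) and a call as lower under median scaling (−0.61) and without scaling (−0.71).
MCOLN1, the channel that lets calcium out of lysosomes, had 1.42, 1.26, 1.26 and 1.57 on arrays labelled pregnant, against 1.02, 0.68, 0.60 and 0.51 on arrays labelled non-pregnant. It was higher by 0.67 ± 0.18 (adjusted p = 0.0122) and its other probes by 1.17 and 1.58, but the call of the brightest probe was lost under median scaling (0.28) and without scaling (0.19). TFEB, the transcription factor that drives lysosomal genes, had 2.27, 2.08, 2.28 and 2.60 against 2.03, 1.70, 2.29 and 1.98 and did not pass (0.31 ± 0.20, adjusted p = 0.209), with a negative sign under median scaling (−0.08) and without scaling (−0.18) and a call as higher under quantile normalization (0.52, adjusted p = 0.0443).

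Of the 5 hydrolases, 3 were lower. MAN2B1, lysosomal alpha-mannosidase, had 2.71, 3.14, 3.11 and 2.81 on arrays labelled pregnant, against 4.72, 4.19, 4.76 and 3.65 on arrays labelled non-pregnant, a difference of −1.39 ± 0.28 (adjusted p = 0.00227). NEU1, the sialidase, had 1.27, 1.48, 1.5 and 3.54 against 3.98, 3.83, 3.54 and 3.50. Array 4 labelled pregnant lay inside the other group, and the difference was −1.77 ± 0.47 (adjusted p = 0.0108) with it and −2.30 ± 0.20 without it.
GLA, alpha-galactosidase A, was not well above background on any array labelled pregnant (−6.39, −5.75, −7.32 and −6.50) and dim on those labelled non-pregnant (−5.13, −4.68, −5.18 and −5.01). Set against the lowest signal that counts as well above background, or its own where higher, it was 2.47-fold lower (means −6.49 and −5.00, adjusted p = 0.00332). Like ATP6V1G3 it passed the filter on dim probes only through the arrays labelled non-pregnant, so that p is no further support, and under a normexp background the difference was 0.02 (adjusted p = 0.936).
GLB1, beta-galactosidase, had 2.45, 2.45, 2.40 and 1.97 on arrays labelled pregnant, against 3.45, 3.20, 2.84 and 2.42 on arrays labelled non-pregnant, and just missed the threshold (−0.66 ± 0.26, adjusted p = 0.0516), which it passed as lower in 7 of 20 alternative analyses. HEXA, the alpha chain of beta-hexosaminidase, had −0.35, −0.70, −0.80 and 0.12 against −0.78, −0.94, −0.29 and −0.04, a difference of 0.08 ± 0.28 (adjusted p = 0.819) with a negative sign under median scaling (−0.30) and without scaling (−0.40).

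**Figure D4:**
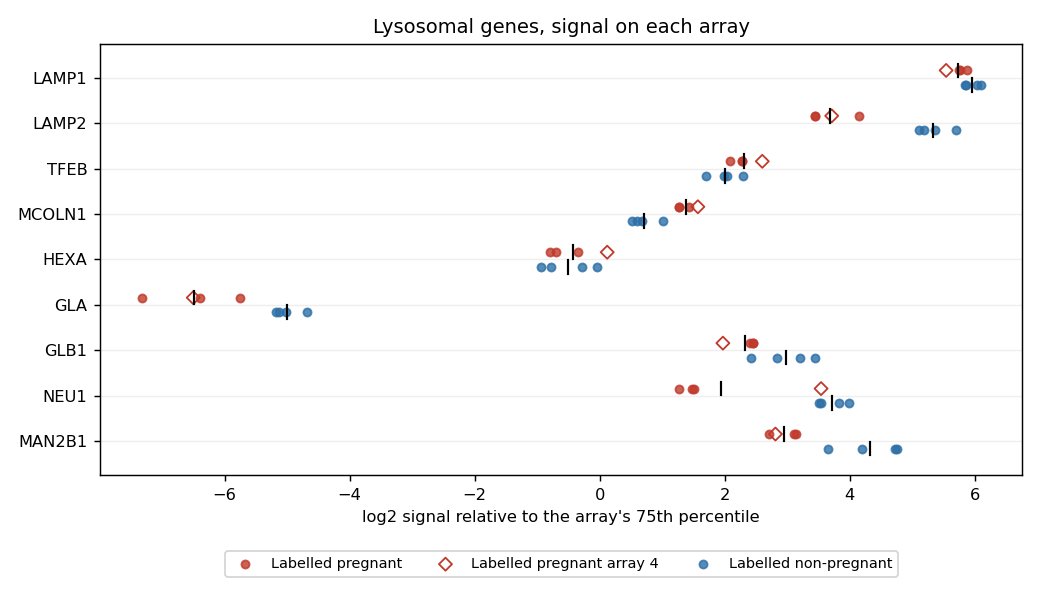
Log2 signal, scaled to the 75th percentile of its array (x axis), for the 9 lysosomal genes (y axis), 1 point per array, labelled pregnant in red (array 4 as an open diamond) above labelled non-pregnant in blue, with a black bar at each group mean. LAMP2 and MAN2B1 separate by label, while the open diamond of NEU1 at 3.54 sits among the blue points.

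Several genes were read by more than 1 probe. Of 37 further tested probes on 23 genes, 31 had the call of the brightest probe, 6 had another call and 0 were called in the opposite direction. Not all of them are independent readings. The second probe overlaps the brightest for ATP6V1C2, ATP6V0D2, ATP6V1G2 and ATP6V1G1, starting 2, 9, 25 and 36 bases away, and the opposite-strand probe of ATP6V1F is counted among the 31. For 10 genes only 1 probe was tested, and 28 genes were well above background on every array. The median SD over the genes was 0.33 on arrays labelled pregnant and 0.26 on arrays labelled non-pregnant. For 8 genes array 4 labelled pregnant lay over 1 log2 unit from the mean of the other 3: ATP6V0A4 by 4.59, ATP6V0A2 by 3.75, NEU1 by 2.13, ATP6V0D2 by 1.84, ATP6V1D by 1.57, ATP6V1E2 by 1.26, ATP6V1H by 1.06 and ATP6V1B1 by −1.64. Without that array 23 genes were lower and 4 higher, the same counts as with it.

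Markers of other cell types were read on the same arrays, and they went in both directions. Proton-secreting epithelial cells carry the pump in their plasma membrane, and of 8 markers 6 were tested, 2 were lower and none was higher. Over all genes 32.9% were lower and 29.9% higher, so 2 of 6 lower does not set this list apart. SLC4A9, an anion exchanger, was well above background on 1 array labelled pregnant (means −5.45 and 4.67), and RHBG, an ammonium transporter, on 3 (means −4.91 and −1.37). Both passed the filter on dim probes only with the arrays labelled non-pregnant, where they were high. SLC4A1 and SLC26A4 had no tested probe and were not well above background on any array labelled pregnant. The summed signal of all 8 was 0.837 to 1.3 times the array's 75th percentile on arrays 1 to 3 labelled pregnant and 13.9 times on array 4, against 19.6 to 48.6 times on arrays labelled non-pregnant. The sum on array 4 was nearly all CA2, a carbonic anhydrase, which had 3.77 there and −2.66 to −1.0 on the other 3, against 1.18 to 2.08 on arrays labelled non-pregnant. Without CA2 the sum was 0.608 to 1.03 on arrays 1 to 3 labelled pregnant and 0.234 on array 4, against 16.7 to 44.4 on arrays labelled non-pregnant. On the latter it was nearly all SLC4A9, with log2 signals of 5.45, 4.94, 4.32 and 3.99 there. The contrast of these sums between labels thus rests on that gene and does not describe the list. FOXI1, RHCG, RHBG and CA4 each had their lowest value among arrays labelled pregnant on array 4, at −6.48, −3.83, −6.17 and −4.25, so the list did not move together there. FOXI1, the transcription factor of such cells, did not pass (−0.23 ± 0.42, adjusted p = 0.657). The part of these markers in the lower signals of ATP6V1G3, ATP6V0A4 and ATP6V0D2 and in the values of array 4 was not tested.
Macrophages are rich in lysosomes. Of 11 macrophage markers 7 were higher, 2 were lower and 2 did not pass, beside 29.9% higher and 32.9% lower over all genes. The summed signal of all 11 was 74.0 to 109 on arrays 1 to 3 labelled pregnant and 36.6 on array 4, against 102 to 144 on arrays labelled non-pregnant. The 2 lower markers, CSF1R (means 4.06 and 5.99) and AIF1 (means 2.34 and 5.43), made up most of the sum on arrays labelled non-pregnant. The sum therefore does not follow the count of markers. No marker of that list was below background throughout a group. The part of these cells, and of the trophoblast and globin transcripts given above, in the differences of the 33 genes was not tested.
As a rough sign of transcript integrity, the log2 signal of an upstream probe minus that of the probe nearest the 3′ end was taken. This was done for the 14 genes with probes at least 500 bases apart on the genome. The median of this difference was −4.17, −4.27, −3.92 and −4.15 on arrays labelled pregnant, against −4.66, −4.04, −4.46 and −2.94 on arrays labelled non-pregnant. The groups overlapped, and array 4 labelled non-pregnant was highest. Whether each probe lies in an exon or intron was not looked up, so the difference need not reflect integrity. For MAN2B1 the upstream probe was not well above background on any array labelled pregnant.

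Other genes of the pump and the lysosome give the setting. Of 13 further pump subunits and assembly factors 12 were tested, with 7 lower (58.3%), 2 higher and 3 not passing, and a median of −0.84. Over all genes 32.9% were lower and 29.9% higher. TCIRG1, the a isoform of osteoclasts, had 2.09, 2.06, 1.96 and 2.22 on arrays labelled pregnant, against 0.18, 0.36, 0.28 and 0.02 on arrays labelled non-pregnant, and rose by 1.87 ± 0.17 (adjusted p = 1.94e-05), so among 4 a isoforms A1 and A4 were lower, TCIRG1 was higher and A2 did not pass. DMXL2, part of the complex that rejoins V1 with V0, had −3.48, −3.31, −3.42 and −3.79 against 2.05, 2.24, 2.54 and 2.64 and fell by 5.87 ± 0.20 (adjusted p = 1.88e-07). Its paralog DMXL1 rose by 0.63 ± 0.20 (adjusted p = 0.0219). WDR7, their partner, was well above background on 1 array labelled pregnant and fell by 2.94 ± 0.44 (adjusted p = 4.39e-04). TLDC2, of the TLDc family that acts on pump assembly, was not well above background on any array labelled pregnant (means −7.65 and −0.81). It was 50.1-fold lower against the lowest signal that counts as well above background (adjusted p = 5.12e-07). WDR7 and TLDC2 passed the filter on dim probes only with the arrays labelled non-pregnant, where they were high, so their p is no further support.

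Further lysosomal hydrolases and activators were called in both directions. Of 29 tested, 5 were lower (17.2%), 8 were higher and 16 did not pass, with a median of 0.26, beside 32.9% lower and 29.9% higher over all genes. ACP5, the tartrate-resistant phosphatase that is also uteroferrin, rose by 2.32 ± 0.31, IDUA, which degrades glycosaminoglycans, by 1.69 ± 0.19, and GAA, acid maltase, by 1.15 ± 0.38, the last with overlapping groups. PLA2G15, the lysosomal phospholipase, had 0.18, 0.26, 0.13 and −0.45 on arrays labelled pregnant, against 5.62, 5.15, 5.38 and 4.98 on arrays labelled non-pregnant, and fell by 5.25 ± 0.23 (adjusted p = 4.93e-07). GALNS, a sulfatase that degrades glycosaminoglycans, fell by 1.19 ± 0.19.
Membrane proteins, channels and transporters split 6 higher, 5 lower (26.3%) and 8 not passing of 19 tested, with a median of −0.00. These counts lie near the shares of all genes and do not set the list apart. LAMP3, a LAMP of dendritic cells, rose by 4.42 ± 0.39 while TPCN1, a calcium channel of endosomes, fell by 4.43 ± 0.32. The other channels moved the opposite way, TPCN2 rising by 1.86 ± 0.56 and MCOLN2 by 2.49 ± 0.85. MCOLN2 had 1.39 on array 4 labelled pregnant and −3.07 to −1.99 on the other 3, against −4.23 to −3.83 on arrays labelled non-pregnant. NPC2, which carries cholesterol out of lysosomes, fell by 3.18 ± 0.22 and SLC17A5, the sialic acid exporter, by 2.37 ± 0.49.

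Delivery of hydrolases to lysosomes showed 5 lower (29.4%), 2 higher and 10 not passing of 17 tested, with a median of −0.12. Over all genes 32.9% were lower and 29.9% higher, so the count of lower genes does not set this list apart. SORT1, a sorting receptor, rose by 2.48 ± 0.20 and GNPTAB, which makes the mannose-6-phosphate tag, by 1.51 ± 0.17. IGF2R, the large receptor for that tag, had 4.13, 3.09, 3.26 and 2.67 on arrays labelled pregnant, against 5.54, 5.22, 5.60 and 4.94 on arrays labelled non-pregnant, and fell by 2.04 ± 0.32 (adjusted p = 5.67e-04). AP3B1 and VPS11, of the adaptor and tethering machinery, fell by 1.36 ± 0.16 and 0.73 ± 0.19.
For the MiT transcription factors and nutrient sensing at the lysosome, 6 were lower (35.3%), 4 higher and 7 not passing of 17 tested, with a median of −0.23. The share of lower genes is again near the 32.9% of all genes. MITF, a relative of TFEB, had 0.30, −0.00, −0.03 and −0.26 on arrays labelled pregnant, against −2.23, −2.29, −2.99 and −2.48 on arrays labelled non-pregnant, and rose by 2.50 ± 0.22 (adjusted p = 2.08e-05). RRAGB, a Rag GTPase, rose by 2.17 ± 0.22 and FLCN, folliculin, by 1.19 ± 0.17, while the folliculin partners FNIP1 and FNIP2 fell by 2.66 ± 0.21 and 4.43 ± 0.38, FNIP2 being well above background on 1 array labelled pregnant. SLC38A9, the arginine sensor, fell by 1.42 ± 0.19. Each gene named in these lists was one of up to 3 called genes with the largest differences in its direction, and the lists are set beside the 33 genes by their counts alone.

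**Figure D5:**
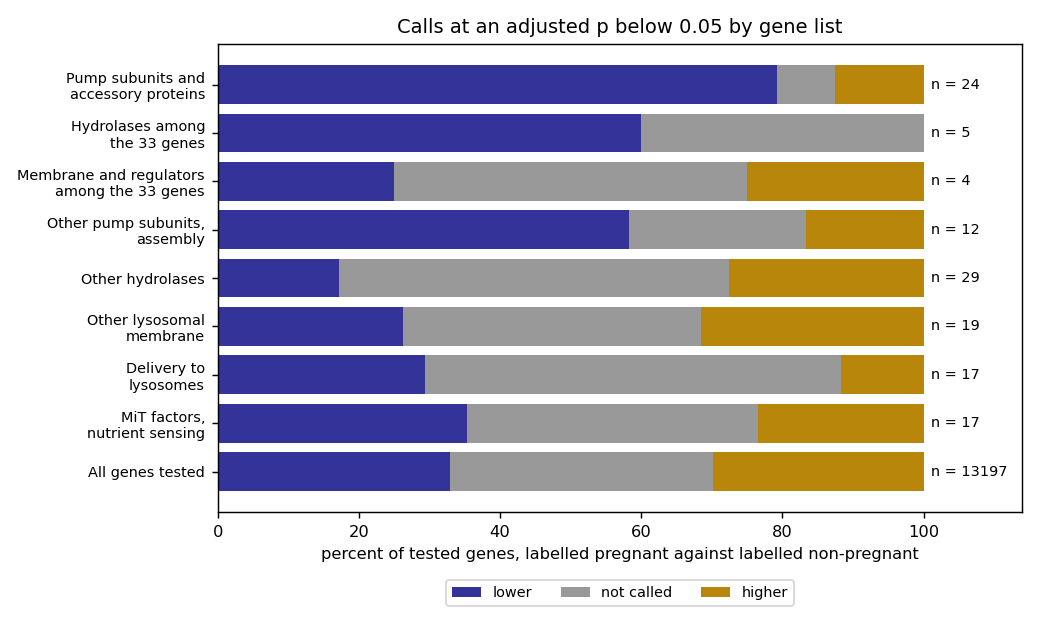
Percent of tested genes (x axis) called lower, not called or called higher on arrays labelled pregnant against arrays labelled non-pregnant at an adjusted p below 0.05, for the pump and lysosomal lists and for all genes tested (y axis, with the number tested). The pump bar is 79.2% lower, the bar of other hydrolases 17.2% and that of all genes 32.9%.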

How the data were processed

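RNA of 8 samples was measured on 1-colour Agilent bovine arrays. The spot intensity that the authors deposited is output of Agilent Feature Extraction 11.5.1.1 with protocol GE1_1105_Oct12, per the file headers: background-subtracted, spatially detrended and not scaled between arrays. Per the labels' protocols, RNA was column-purified with a DNase step and copied with an oligo-dT primer, which favours the 3′ end. The authors also deposited a log2 table. Its values correlated at 0.9994 to 0.9999 with log2 processed intensity, which leaves direction and log base clear, and its 75th percentiles lie near 0, so its centring is read from the values and not stated. Its medians were −3.5628, −3.605, −3.6413 and −3.6105 for replicates 1 to 4 labelled pregnant and −4.2066, −4.0084, −4.0032 and −3.7654 for those labelled non-pregnant.

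After 1319 control spots and 119 spots with outlier flags were left out (0 were saturated), spots of a probe were averaged on the log2 scale and the array's 75th percentile was subtracted. A probe was tested if well above background in at least 0.5 of its spots on at least 4 arrays. The labels were compared with limma 3.58.1 (R 4.3.3). Its p-values were adjusted by Benjamini-Hochberg over 34597 probes, with a threshold of 0.05, and every adjusted p of a single gene comes from that fit unless an alternative is named beside it. Where a gene was not well above background on any array of a group, its fold was set against the dimmest signal well above background on each array, or the probe's own if higher. Probes brighter than that signal can still fail the flag, so this fold is approximate and no strict lower bound. Isoform pairs were compared by exact permutation tests with scipy 1.17.1.

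Probes took gene symbols from RefSeq annotation by accession (28112), by a further accession (1770), by symbol (5523) or by synonym (149), and 15728 kept none. All 75 probes of the 33 genes were named. The genes and companion lists were chosen with earlier results of these data known. All 33 genes are named. From each companion list come up to 3 called genes with the largest positive and up to 3 with the largest negative difference, of which 1 is not reported here. On data simulated for this comparison with 34597 probes, 7% of changes of log2 1 and 58% of changes of log2 2 were recovered, all with the right sign. Only 100 probes were changed by each size there, whereas 62.8% of genes were called in the data. The adjusted threshold was therefore stricter in the simulation, and these shares do not give the power of the fit reported here. Replicate numbers equal the slide column. Deviations of equally numbered arrays correlated at 0.00897, 0.0751, 0.0495 and 0.155 for replicates 1 to 4, against −0.113 to 0.0485 for unequally numbered arrays. All but that of replicate 1 lay above the latter range. The labels give no pairing, so the fit reported here left the numbers out, and a replicate block was run as an alternative. The part of the slide column in the values was not tested. Alternatives were normexp background (offset 50), other scalings, filters on dim probes, the mean of a gene's probes, the authors' table, a replicate block, an unmoderated fit and leaving out each array. With 4 arrays per group, their number limits the precision.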

Additional observations from a re-analysis of the deposited data

Results flagged for a closer look

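Of 66 groups of 4 arrays, 1 per gene and label, 9 held an array that stood apart from the other 3 by Dixon's criterion, which chance alone meets in about 1 of 20 groups. Array 4 labelled pregnant stood above its group for ATP6V1D (5.14, the others 3.57 to 3.58), ATP6V1H (1.65, the others 0.55 to 0.63) and NEU1 (3.54, the others 1.27 to 1.5), and below it for GLB1 (1.97, the others 2.40 to 2.45). Array 1 labelled pregnant stood above its group for ATP6V1G2 (0.14, the others −0.21 to −0.19). Among arrays labelled non-pregnant, array 4 was low for ATP6V1A (4.58, the others 5.03 to 5.06) and high for ATP6V1H (2.70, the others 2.11 to 2.19). Array 1 was high for ATP6V1G3 (3.96, the others 3.31 to 3.36), and array 3 was low for ATP6V0D2 (−3.22, the others −1.78 to −1.49).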

How the results depend on the processing

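The count of genes called lower was 20 to 26 across the scaling, background, filter and probe alternatives (23 as reported) and 22 to 24 when 1 array was left out, and the count called higher was 3 to 5 and 4. Pairs of isoforms without overlap numbered 8 of 9, 8 to 9 when 1 array was left out, and 5 where probes dim on any array were dropped, a filter that leaves 28 genes and 5 pairs. Median scaling and no scaling shifted the median of all genes to −0.41 and −0.51 and the percentile over detected probes to 0.14, beside −0.03 as reported, and all genes were 21.9% higher and 40.9% lower with median scaling and 19.5% higher and 42.0% lower without scaling, against 29.9% higher and 32.9% lower as reported. Changed signs, all of genes that were not called except GLA, were 0.02 for GLA with normexp background, −0.08 and −0.18 for TFEB and −0.30 and −0.40 for HEXA with median scaling and no scaling, and 0.27 and 0.03 for LAMP1 with quantile normalization and the mean of its probes. Leaving out 1 array gave −0.38 to 1.01 for ATP6V0A2 and −0.10 to 0.24 for HEXA; the causes were not tested. With the replicate number as a block the counts were 23 lower and 4 higher, ATP6V1F missed the threshold (adjusted p = 0.0776) and GLB1 passed it (adjusted p = 0.0318). Isoform pairs were not run under the block, since the test of a ratio has no block term here. Of genes near background in 1 group, ATP6V1G3 read −7.21 and ATP6V0A4 −4.96 with normexp, both still called.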
